A study of Mus musculus with 30 samples.

Results

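The cells described here are CD8 T cells from mouse oral carcinomas whose RNA held at least 1 molecule of Xcl1 and at least 1 of Ccl1. They were taken from 8 single-cell RNA libraries by unique molecular identifiers (UMIs), each of which marks 1 captured RNA molecule. A cell entered the CD8 gate with at least 300 genes, at most 10% mitochondrial UMIs, at least 1 UMI over Cd3e, Cd3d and Cd3g, at least 1 UMI over Cd8a and Cd8b1, and none of Cd4, Foxp3 or Mki67. Of 29075 cells that passed the cell filter, 9330 entered the gate, and 329 of these, or 3.53%, held both chemokine transcripts. They are called Xcl1+Ccl1+ cells below. Of the other gated cells, 1040 had Xcl1 only, 229 had Ccl1 only, and 7732 had neither and served as the comparison, called Xcl1-Ccl1- cells.

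All tumours grew in C57BL/6J mice, which received antibody injections on days 3, 6 and 9 after inoculation. The groups were MOC1 with anti-PD-1, anti-CTLA-4 or isotype control antibody, MOC1E1 (MOC1esc1 in the growth protocol) with the same 3 antibodies, and MOC22 with anti-PD-1 or isotype control antibody. MOC1, MOC1E1 and MOC22 are mouse oral squamous carcinoma lines, and the antibodies block receptors that restrain T cells. Each group has 1 RNA library and 1 matching T cell receptor library, so within a model the antibody groups were compared without a test. Tests over the models, with the model as a block, were added after the data were seen. The labels call the sequenced material T cells for MOC1 and MOC22 RNA and immune cells for MOC1E1, and the sources used here do not state how many mice went into a library.

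Xcl1, or lymphotactin, is the ligand of Xcr1, a receptor carried by cross-presenting dendritic cells. Ccl1 is a chemokine that binds Ccr8, a receptor found on regulatory T cells and on some activated T cells. CD8 T cells and natural killer cells are known to secrete Xcl1 after activation, and Nr4a1 (Nur77) is an orphan nuclear receptor whose transcription is switched on by T cell receptor signalling. The series concerns how T cells in tumours change when checkpoint antibodies are given.

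The promoters of the chemokine genes that define the cells are printed because transcription from both was the entry condition. RefSeq holds both on build GRCm38.p6 and on the minus strand, and the windows run from 250 bases before to 50 bases after the gene start. The Xcl1 window is chr1:164935473-164935772 and the Ccl1 window is chr11:82179763-82180062. Capitals mark matches of GGAAA, the core letters of NFAT motifs, searched on both strands, so that TTTCC is a match on the other strand.
Xcl1 promoter: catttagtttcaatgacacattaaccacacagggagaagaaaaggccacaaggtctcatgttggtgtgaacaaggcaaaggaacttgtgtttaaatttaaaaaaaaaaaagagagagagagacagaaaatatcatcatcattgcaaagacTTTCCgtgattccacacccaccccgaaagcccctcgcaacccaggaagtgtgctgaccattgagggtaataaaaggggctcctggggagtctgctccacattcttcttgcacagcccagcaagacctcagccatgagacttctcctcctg
Ccl1 promoter: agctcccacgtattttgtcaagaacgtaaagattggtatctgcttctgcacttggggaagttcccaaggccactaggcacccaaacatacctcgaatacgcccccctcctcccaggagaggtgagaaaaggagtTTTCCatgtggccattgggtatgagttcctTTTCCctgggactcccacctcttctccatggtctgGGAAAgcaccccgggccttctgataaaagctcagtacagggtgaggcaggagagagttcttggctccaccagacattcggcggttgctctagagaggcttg
The Xcl1 window held 1 match and the Ccl1 window held 3. Of 32851 mouse promoter windows of the same length, 61.3% held GGAAA on either strand and 9.42% held at least 3 matches. Neither window held TGANTCA, the AP-1 motif, which 7.81% of the windows held. These matches are letters in a window and not measured binding sites.

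Libraries held 14766019 to 28466596 UMIs over 2755 to 4943 barcodes. The median Xcl1+Ccl1+ cell had 6656 to 10345 UMIs per library, against 4270 to 6091 UMIs in Xcl1-Ccl1- cells, a ratio of 1.17 to 2.23. A deeper cell is more likely to show any given transcript. The comparisons with Xcl1-Ccl1- cells and with Xcl1-only cells were therefore repeated on gated cells thinned to 2000 UMIs. The CD8 gate itself was applied at full depth, and cells were sorted by Xcl1 and Ccl1 again after thinning. Beside a gene's fold change or call between classes, thinned values are given where they change the call or move the fold by more than 1.5 times. Thinned fold changes and calls use the 187 cells that still held both transcripts after thinning. Percentages of cells with a UMI of a gene after thinning instead keep the full-depth classes, with 326 Xcl1+Ccl1+ cells. Cells with 2 or more receptor beta chains, which can mark 2 cells in 1 droplet, made up 5.33% of Xcl1+Ccl1+ cells with a beta chain (16 of 300) and 6.23% of such Xcl1-Ccl1- cells (378 of 6063). Any 2 libraries shared 7 to 35 barcodes, and 8 of the 329 Xcl1+Ccl1+ barcodes also occurred in another library.

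The transcripts that defined the cells were abundant in many of them and scarce in others. The median Xcl1+Ccl1+ cell held 10.0 Xcl1 UMIs and 5.00 Ccl1 UMIs, and the highest cells held 469 Xcl1 UMIs and 334 Ccl1 UMIs. At the lower edge, 53 cells had a single Xcl1 UMI, 73 had a single Ccl1 UMI and 17 had a single UMI of each. On the CPM scale, which divides summed UMIs by the library and class total, Xcl1 in Xcl1+Ccl1+ cells had a lowest library value of 1393, a median of 4183 and a highest of 8364. Ccl1 had a lowest value of 1249, a median of 2054 and a highest of 5244. For both transcripts the highest library was MOC1E1 isotype. Just outside the threshold, the 1040 cells with Xcl1 alone held a median of 1 to 2 Xcl1 UMIs per library.

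Both classes carried T cell transcripts. The median over 8 libraries was 1719 CPM of Cd3e in Xcl1+Ccl1+ cells and 1492 CPM in Xcl1-Ccl1- cells. Cd8a had a median of 1702 CPM in Xcl1+Ccl1+ cells and 1032 CPM in Xcl1-Ccl1- cells and was the higher in Xcl1+Ccl1+ cells of 8 libraries. Cd8b1 had a median of 1167 CPM in Xcl1+Ccl1+ cells and 1495 CPM in Xcl1-Ccl1- cells and was the lower in Xcl1+Ccl1+ cells of 7 libraries. These 3 genes were part of the selection. The proposed marker Nr4a1 is described with the other activation factors below.

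The transcripts tended to occur in the same CD8 cells. Per library, 15.4 to 43.1% of CD8 cells with Xcl1 also had Ccl1, against 1.04 to 4.23% of CD8 cells without Xcl1. The Xcl1+Ccl1+ cells held 26.9 to 87.4% of all Xcl1 UMIs and 51.7 to 99.0% of all Ccl1 UMIs of the CD8 gate. Cells that should lack both transcripts gave the background from free RNA. Lyz2 cells without Cd3 and Ncr1, which are mostly myeloid, had both transcripts in 0 of 1509 cells with anti-PD-1, 0 of 399 with anti-CTLA-4 and 0 of 1255 with isotype in MOC1E1, which allows shares of up to 0.199%, 0.752% and 0.239%. The median Lyz2 cell in these libraries had 6372, 3306 and 6231 UMIs, against 5516, 4494 and 5754 UMIs in the CD8 gate. The shares in CD8 cells of these 3 libraries were above their own limits. In MOC1, 0 of 32 Lyz2 cells with anti-PD-1, 0 of 13 with anti-CTLA-4 and 0 of 14 with isotype held both, which allows up to 9.38%, 23.1% and 21.4%. Those limits lie above the CD8 shares of the MOC1 libraries, so the background was not measurable there at this depth, and 1 of the 14 isotype cells held Ccl1. MOC22 isotype had 1 Lyz2 cell of this kind, too few for a limit, and MOC22 anti-PD-1 gave none.

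Other lymphocytes also held both transcripts in some cells. Foxp3 cells held both in 0 cells of 7 libraries and in 2 of 1200 cells, or 0.167%, of MOC1 isotype. CD4 T cells without Foxp3 held both in 0 to 2.17% of cells. Ncr1 cells without Cd3, which are natural killer like, numbered 224 to 565 per MOC1E1 library. They held Xcl1 in 27.1% of cells with anti-PD-1, 46.0% with anti-CTLA-4 and 34.4% with isotype, and both transcripts in 0.354%, 1.34% and 1.53%. The receptor side was uneven: Ccr8 was found in 24.1 to 68.6% of Foxp3 cells and in 14.8 to 28.5% of the CD8 gate. Xcr1 was found in 6 Lyz2 cells in MOC1E1 anti-PD-1 and 9 in MOC1E1 isotype, and in 0 to 4 cells of the CD8 gate and 0 to 4 CD4 T cells per library. Dendritic cells were not counted as a class.

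The share of Xcl1+Ccl1+ cells among gated CD8 cells was highest in isotype tumours of MOC1E1 and MOC22. In MOC1E1 it was 4.56% with anti-PD-1 (32 of 701 cells, exact 95% interval 3.14 to 6.38%) and 3.68% with anti-CTLA-4 (42 of 1142, 2.66 to 4.94%), against 10.9% with isotype (28 of 257, 7.36 to 15.4%). In MOC22 it was 1.43% with anti-PD-1 (29 of 2022, 0.963 to 2.05%), against 6.18% with isotype (87 of 1407, 4.98 to 7.57%). In MOC1 it was 3.91% with anti-PD-1 (49 of 1254, 2.90 to 5.13%) and 1.85% with anti-CTLA-4 (33 of 1779, 1.28 to 2.60%), against 3.78% with isotype (29 of 768, 2.54 to 5.38%). Of the 5 antibody libraries, 4 lay below their isotype library, and MOC1 anti-PD-1 lay within its interval.

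**Figure D1:**
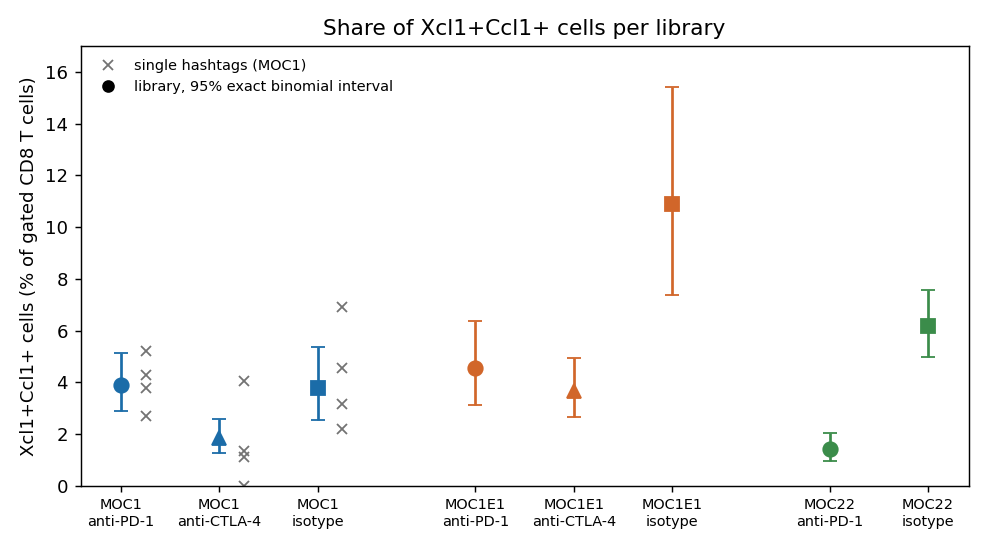
Xcl1+Ccl1+ cells as a percent of gated CD8 T cells (y axis) in each of the 8 libraries (x axis). Points are libraries with exact binomial 95% intervals and crosses are the 4 hashtags of each MOC1 library; MOC1E1 isotype is highest at 10.9% and MOC22 anti-PD-1 lowest at 1.43%.

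As differences in percentage points from isotype, the shares were -6.33 (interval -11.0 to -2.36) in MOC1E1 anti-PD-1, -7.22 (-11.8 to -3.47) in MOC1E1 anti-CTLA-4 and -4.75 (-6.22 to -3.40) in MOC22 anti-PD-1. The difference was -1.92 (-3.62 to -0.483) in MOC1 anti-CTLA-4 and 0.131 (-1.76 to 1.87) in MOC1 anti-PD-1. The intervals cover counting error only, and 1 library per group allows no test within a model. Over the 3 models the anti-PD-1 share minus isotype averaged -3.65 points (SD 3.37), lower in 2 of 3 (exact two-sided sign-flip permutation p = 0.50, smallest possible 0.250). Over 2 models the anti-CTLA-4 difference averaged -4.57 points (SD 3.74), lower in both (exact permutation p = 0.50, the smallest possible). Neither test can reach 0.05. Both antibody libraries of MOC1 share an isotype library, as do both of MOC1E1. After thinning, the shares were 2.69%, 1.68% and 7.20% in MOC1E1 anti-PD-1, anti-CTLA-4 and isotype, 1.17% and 3.68% in MOC22 anti-PD-1 and isotype, and 2.33%, 0.839% and 2.40% in MOC1 anti-PD-1, anti-CTLA-4 and isotype. Letting cycling cells with Mki67 into the gate gave 4.35%, 5.02% and 10.8% in MOC1E1, 1.83% and 6.56% in MOC22, and 4.44%, 2.28% and 4.68% in MOC1, in the same group order.

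The MOC1 cells carried 4 hashtags per library, and the sources used here do not say what a hashtag marks. With anti-CTLA-4 the share ran unevenly over them. It was 4.05% in hashtag 3 (24 of 592 cells), 1.36% in hashtag 4, 1.11% in hashtag 1 and 0% in hashtag 2 (0 of 384, upper bound 0.956%). Hashtag shares ran between 2.71% and 5.21% with anti-PD-1 and between 2.21% and 6.92% with isotype. With anti-CTLA-4, 1 clone, defined by identical alpha and beta chains, held 10 Xcl1+Ccl1+ cells among 41 CD8 cells, of which 39 carried hashtag 3. This clone gave 9 of the 24 Xcl1+Ccl1+ cells of hashtag 3, and its part in the unevenness was not tested. Without that clone the MOC1 anti-CTLA-4 share was 1.32%.

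Single clones also contributed to the high isotype shares. In MOC22 isotype the largest contributing clone held 16 Xcl1+Ccl1+ cells among 36 CD8 cells, and the share without it was 5.18%. In MOC1E1 isotype such a clone held 7 Xcl1+Ccl1+ cells among 8 CD8 cells, and the share without it was 8.43%. Without the largest contributing clone of every library, MOC1E1 anti-PD-1 stood at 4.37%, MOC1E1 anti-CTLA-4 at 3.55% and MOC22 anti-PD-1 at 1.41%, below their isotype libraries.

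Which other genes accompany the chemokine pair was asked by summing UMIs per library and class, giving 8 Xcl1+Ccl1+ sums and 8 Xcl1-Ccl1- sums. Of 8068 genes tested outside the selection rule, 1073 (13.3%) were higher and 1119 (13.9%) lower in Xcl1+Ccl1+ cells at an adjusted p of 0.05, with the library as a block in edgeR's quasi-likelihood test. That is 27.2% of genes in either direction, so a call on its own was common. Higher genes were 49.0% of the calls, and 62.5% with library sizes not normalized by TMM. In 255 genes, or 3.16%, the 8 values of the classes did not overlap. In thinned cells 216 of 5015 genes (4.31%) were higher and 614 (12.2%) lower. Of these 830 calls, 662 (79.8%) were made in the same direction at full depth, which is 38.2% of the 1734 full-depth calls that could be tested after thinning. The p-values rest on how much the class difference within a library varies over these 8 libraries of 3 models and up to 3 antibodies. All fold changes below are Xcl1+Ccl1+ over Xcl1-Ccl1- cells on the log2 scale with their standard error (SE), and p-values are adjusted over all genes tested.

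Penk, which encodes proenkephalin, the precursor of opioid peptides, had a lowest value of 61.4, a median of 302 and a highest of 548 CPM in Xcl1+Ccl1+ cells, against 0, 10.9 and 55.0 CPM in Xcl1-Ccl1- cells. Its log2 fold change was 4.55 (SE 0.54, adjusted p = 5.50e-05, edgeR). The classes did not overlap. All 3 MOC1 libraries stood at 339.8 CPM or more, as did MOC22 isotype at 373 CPM. In MOC1E1, Penk UMIs lay in 6 of 32 Xcl1+Ccl1+ cells with anti-PD-1 and in 4 of 28 with isotype. Nrgn, a calmodulin-binding protein best known from neurons, had 85.3, 126 and 248 CPM in Xcl1+Ccl1+ cells, against 0.945, 9.55 and 25.8 CPM in Xcl1-Ccl1- cells (log2 3.84, SE 0.30, adjusted p = 2.55e-06). Igfbp7, a secreted binding protein for insulin-like growth factors, had 21.3, 87.4 and 265 CPM, against 0.945, 7.81 and 19.8 CPM. For neither gene did the values of the classes overlap.

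Crtam, an adhesion receptor that activated T and natural killer cells put on their surface, had 136, 172 and 444 CPM (lowest, median and highest library) in Xcl1+Ccl1+ cells, against 18.7, 24.6 and 30.6 CPM in Xcl1-Ccl1- cells. The log2 fold change was 3.09 (SE 0.19, adjusted p = 1.48e-07). With libraries pooled, a Crtam UMI was found in 52.0% of Xcl1+Ccl1+ cells and 11.5% of Xcl1-Ccl1- cells, and after thinning in 27.3% and 4.56%. Tnfrsf9 (4-1BB), a costimulatory receptor that appears after antigen contact, had 513, 756 and 1036 CPM, against 35.8, 145 and 424 CPM (log2 2.45, SE 0.26, adjusted p = 2.75e-05). In thinned cells, with libraries pooled and the full-depth classes kept, it was found in 60.4% of Xcl1+Ccl1+ cells and 16.3% of Xcl1-Ccl1- cells.

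**Figure D2:**
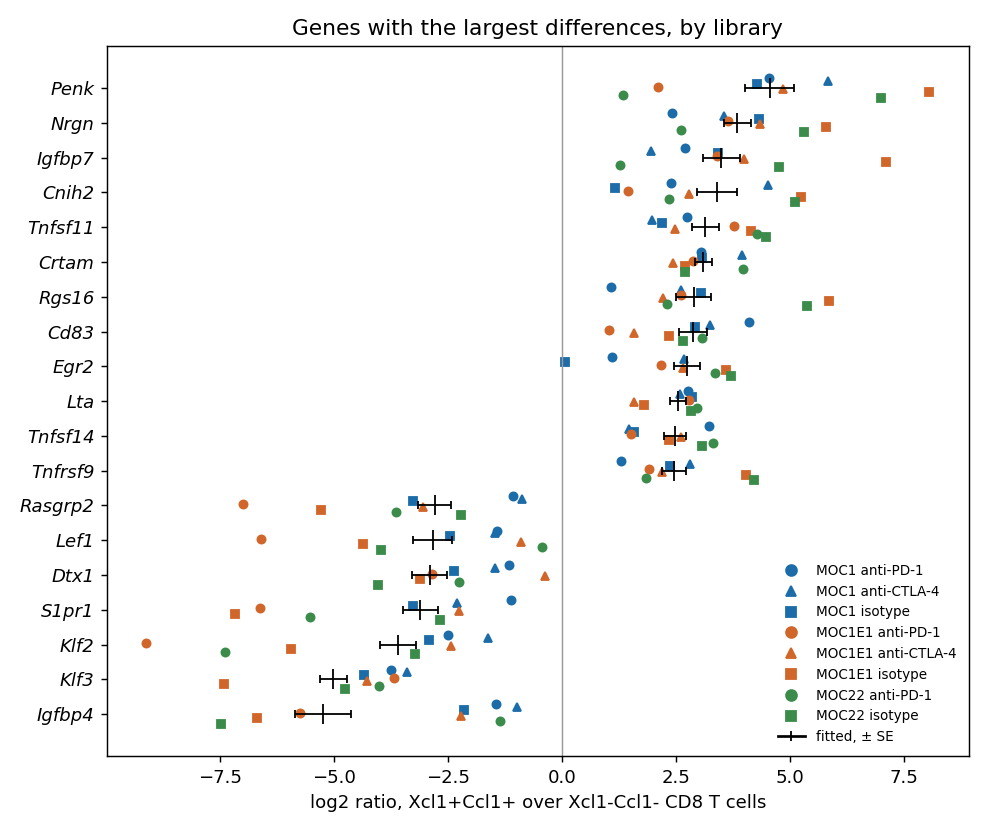
Log2 ratio of CPM plus 1 in Xcl1+Ccl1+ over Xcl1-Ccl1- cells (x axis) for the 12 largest rises and 7 of the 8 largest falls (y axis), 1 coloured symbol per library. Black bars are the fitted log2 fold change with its SE; the 8 libraries of each gene lie on the same side of 0, as the rule for naming them required, and where a library had no UMI its ratio is set by the added 1.

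Rgs16, a regulator that shortens signals from G protein coupled receptors, had 588, 885 and 1499 CPM in Xcl1+Ccl1+ cells, against 11.3, 147 and 509 CPM in Xcl1-Ccl1- cells. Cd83, an immunoglobulin-family activation marker, had 6.80, 64.9 and 159 CPM, against 0.647, 9.41 and 21.8 CPM, with overlap between the classes (log2 2.86, and 3.56 in thinned cells). Cnih2, which encodes a partner of glutamate receptors in neurons, had 6.12, 46.6 and 126 CPM, against 0, 4.35 and 12.6 CPM. The 12 largest rises, picked among genes with 1 direction in all libraries, were also called higher in thinned cells.

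Klf2, among the largest falls, is a factor that keeps T cells quiescent and drives S1pr1. It had 0, 30.7 and 85.7 CPM in Xcl1+Ccl1+ cells, against 86.7, 395 and 742 CPM in Xcl1-Ccl1- cells (log2 -3.60, SE 0.39, adjusted p = 3.41e-05). Klf3, a related repressor, had 0, 1.43 and 6.47 CPM, against 9.62, 80.3 and 170.1 CPM (log2 -5.02, SE 0.30, adjusted p = 1.48e-07). Neither overlapped between the classes. The Xcl1+Ccl1+ sums held only 8 Klf3 UMIs in all, and those of 4 libraries held none. With these set to 3 counts, the highest log2 ratio of Klf3 in a library was 0.08. S1pr1, the receptor for exit from tissue, had 0, 6.30 and 23.6 CPM, against 20.7, 75.1 and 154 CPM. The Xcl1-Ccl1- cells themselves varied: Klf2 stood at 742 CPM in those of MOC1E1 isotype, 661 CPM in MOC1 isotype and 631 CPM in MOC22 isotype, and at 86.7 CPM in MOC1 anti-CTLA-4.

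Of the 15 tested genes of the memory and naive list, 11 were lower, 0 were higher and 4 were not called, with a median log2 fold change of -1.88 against -0.03 over all genes. In thinned cells 12 of 15 were lower. Over all genes 13.9% were lower and 13.3% higher, and in thinned cells 12.2% and 4.31%. Tcf7, the factor of naive and progenitor T cells, had a log2 fold change of -2.54 (SE 0.30, adjusted p = 5.26e-05), and -3.74 in thinned cells. Lef1, its partner factor, had 0, 17.8 and 25.6 CPM in Xcl1+Ccl1+ cells, against 35.1, 78.6 and 399 CPM in Xcl1-Ccl1- cells. Il7r, the survival receptor for interleukin 7, had 54.6, 112 and 191 CPM, against 126, 355 and 611 CPM (log2 -1.53, SE 0.15, adjusted p = 1.51e-05). Igfbp4, Dtx1 and Rasgrp2 also fell among the 8 largest, and all 8 were called lower in thinned cells. The log2 fold change of Igfbp4 was -5.24 with all libraries, -9.14 in thinned cells, -3.76 without MOC22 isotype, -5.99 without MOC1 anti-PD-1 and -6.51 without MOC1 isotype, and that of Dtx1 was -2.91 and -2.22 without MOC22 isotype.

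The list of factors induced by T cell receptor signalling was more often higher than lower. Of 23 tested members, 13 were higher, 2 lower and 8 not called, with a median log2 fold change of 0.80, while 13.3% of all genes were higher and 13.9% lower. In thinned cells 10 of 23 were higher and 1 lower, with a median of 0.86. Egr2, a factor that restrains activated T cells, had 6.12, 81.8 and 171 CPM in Xcl1+Ccl1+ cells, against 5.90, 9.79 and 15.9 CPM in Xcl1-Ccl1- cells (log2 2.74, SE 0.28, adjusted p = 1.98e-05). Irf8, an interferon regulatory factor, had 245, 322 and 669.9 CPM, against 17.1, 67.9 and 131 CPM (log2 2.44, SE 0.30, adjusted p = 6.20e-05). Nfkb1 and Rel encode NF-kappaB subunits. Nfkb1 rose by 1.27 (138, 165 and 212 CPM, against 41.2, 59.8 and 112 CPM) and Rel by 1.31 on the log2 scale.

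Several rapidly induced activation genes were lower or not called. Fos, an AP-1 subunit, fell by 1.31 on the log2 scale (SE 0.25, adjusted p = 0.00160, lower in 7 of 8 libraries), with 5.74, 70.4 and 233 CPM in Xcl1+Ccl1+ cells, against 4.72, 252 and 606 CPM in Xcl1-Ccl1- cells. Without the library block the call of Fos was lost (-1.36, adjusted p = 0.214). Cd69, an early activation marker that holds T cells in tissue, fell by 0.62, a call lost in thinned cells (-0.33, adjusted p = 0.368), without TMM (-0.53, 0.0504) and without MOC1 isotype (-0.52, 0.0620). Egr1 had a log2 fold change of -0.07 (SE 0.30, adjusted p = 0.904). By model it was -1.02 in MOC1, -0.21 in MOC1E1 and 1.31 in MOC22, a difference that was not called (adjusted p = 0.344, edgeR). Jun, Junb, Fosb, Ier2, Dusp2, Myc and Tnfaip3 were not called. With 1 library left out, Jun passed without MOC1 anti-PD-1 (-0.82, adjusted p = 0.0188) or MOC22 isotype (-0.62, 0.0463), Fosb without MOC22 anti-PD-1 (-0.62, 0.0489) and Myc without MOC22 isotype (1.24, 0.0476). The list of dissociation and heat shock genes, which shares Fos, Fosb, Jun, Ier2 and Egr1, had 3 members higher, 5 lower and 10 not called. Within it Gadd45b rose by 1.47 and Hspa1a fell by 1.88. Over all genes 13.3% were higher and 13.9% lower.

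Nr4a1, proposed as a marker of these cells, was higher in 7 of 8 libraries. It had 99.2, 253 and 936 CPM in Xcl1+Ccl1+ cells, against 11.4, 55.2 and 606 CPM in Xcl1-Ccl1- cells (log2 1.69, SE 0.45, adjusted p = 0.0116). With libraries pooled, a UMI of Nr4a1 was found in 51.4% of Xcl1+Ccl1+ cells and 29.2% of Xcl1-Ccl1- cells, and after thinning in 27.6% and 18.5%. The medians over libraries were 50.8% and 9.72%, and after thinning 24.4% and 4.59%. The related receptors Nr4a2 and Nr4a3 rose by 1.19 (SE 0.32, adjusted p = 0.0119) and 1.85 (SE 0.39, adjusted p = 0.00286). Without the library block none of these 3 calls held, with log2 fold changes of 1.07 for Nr4a1 (adjusted p = 0.288), 0.69 for Nr4a2 (0.414) and 1.24 for Nr4a3 (0.127).

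The Nr4a differences were of unequal size in the 3 models. Only 2 of 8068 genes, or 0.0248%, had a class difference that varied by model at an adjusted p of 0.05, and they were Nr4a3 (adjusted p = 0.00981, edgeR) and Nr4a1 (0.00987). For Nr4a1 the log2 fold change was 0.48 in MOC1, 1.44 in MOC1E1 and 4.18 in MOC22. In MOC1, Xcl1+Ccl1+ cells had 618, 936 and 285 CPM with anti-PD-1, anti-CTLA-4 and isotype, against 265, 606 and 352 CPM in Xcl1-Ccl1- cells. In MOC22 they had 699.8 and 221 CPM with anti-PD-1 and isotype, against 33.6 and 11.4 CPM. The Xcl1-Ccl1- cells of all 3 MOC1 libraries held more Nr4a1 than the Xcl1+Ccl1+ cells of the 3 MOC1E1 libraries, which had 191, 119 and 99.2 CPM with anti-PD-1, anti-CTLA-4 and isotype.

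For Nr4a3 the log2 fold change was 0.55 in MOC1, 2.11 in MOC1E1 and 3.81 in MOC22. Its CPM in MOC1 was 175, 195 and 174 in Xcl1+Ccl1+ cells with anti-PD-1, anti-CTLA-4 and isotype, against 87.8, 183 and 105 in Xcl1-Ccl1- cells. In MOC22 it was 252 and 115 with anti-PD-1 and isotype, against 20.8 and 5.47. Leaving out MOC1 anti-CTLA-4 left 0 genes called for a difference between models, with 304 at an unadjusted p below 0.05, leaving out MOC1 isotype left 1, MOC1E1 isotype 4, MOC22 isotype 11 and MOC22 anti-PD-1 122. The next genes by p were Ifitm3, Dapl1, Egr1 and Tnfsf11, at adjusted p of 0.266 to 0.344.

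**Figure D3:**
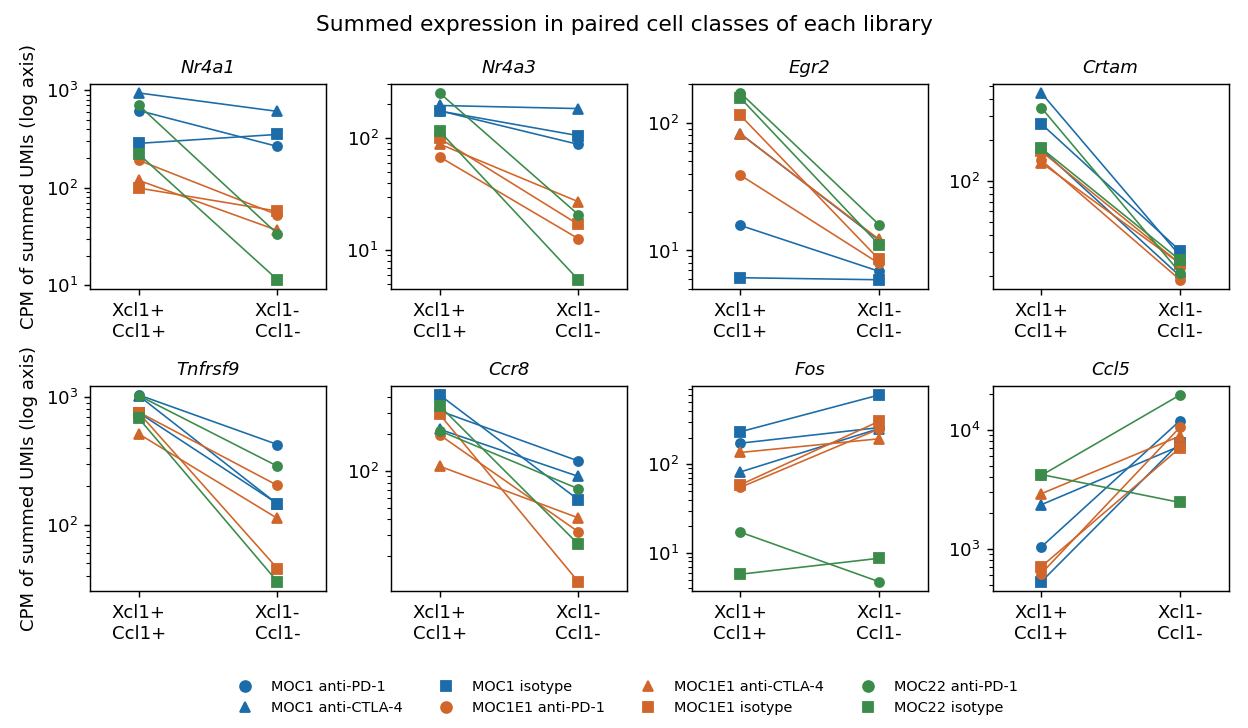
CPM of summed UMIs on a log axis in Xcl1+Ccl1+ cells (left) and Xcl1-Ccl1- cells (right), with a line joining both classes of each of the 8 libraries, for 8 genes. Crtam and Tnfrsf9 separate in every library, Nr4a1 and Nr4a3 differ most in MOC22, and Fos and Ccl5 are lower in 7 of 8 libraries.

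Cytokine and chemokine genes beyond Xcl1 and Ccl1 also differed. Of 22 tested members, 12 were higher, 5 lower and 5 not called, with a median log2 fold change of 1.23. In thinned cells 12 of 20 were higher and 3 lower. Over all genes 13.3% were higher and 13.9% lower, and in thinned cells 4.31% and 12.2%. The list holds ligands of the tumour necrosis factor family. Tnfsf11 (RANKL), which acts on dendritic cells and osteoclasts, had 61.2, 152 and 265 CPM in Xcl1+Ccl1+ cells, against 2.80, 9.40 and 54.0 CPM in Xcl1-Ccl1- cells (log2 3.14, SE 0.29, adjusted p = 1.06e-05). Lta (lymphotoxin alpha) had 51.7, 79.7 and 138 CPM, against 6.64, 13.5 and 22.7 CPM (log2 2.54, SE 0.18, adjusted p = 1.04e-06). Tnfsf14 (LIGHT) rose by 2.48 and Tnfsf9 (4-1BB ligand) by 1.82 on the log2 scale. The first 3 of these ligands did not overlap between the classes, where 3.16% of all genes tested did not. Tnfsf8 was higher by 1.27 (adjusted p = 0.0242), a call lost in thinned cells (1.18, 0.0891) and without the library block (1.34, 0.115). The call was also lost without MOC1 anti-PD-1 (1.03, 0.0862), MOC1 isotype (1.05, 0.0975) or MOC1E1 anti-PD-1 (1.04, 0.0875). Of the family, Ltb, Cd40lg and Fasl were not called, with log2 fold changes of -0.23 (adjusted p = 0.157), 0.48 (0.597) and -0.26 (0.606). In thinned cells Cd40lg stood at 1.31 (adjusted p = 0.0865).

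The other inflammatory chemokines went in both directions. Ccl3, which draws monocytes and T cells, had 147, 1121 and 2838 CPM in Xcl1+Ccl1+ cells, against 41.7, 161 and 1186 CPM in Xcl1-Ccl1- cells (log2 2.03, SE 0.25, adjusted p = 7.40e-05). Ccl4, a related chemokine, had 85.7, 3706 and 11214 CPM, against 258, 578 and 3314 CPM (log2 2.00, SE 0.40, adjusted p = 0.00218), and MOC1 isotype was the library with less in Xcl1+Ccl1+ cells. Ccl5, a product of effector and memory cells, fell by 2.57 on the log2 scale (SE 0.42, adjusted p = 4.81e-04). It had 529.6, 1692 and 4204 CPM, against 2451, 8325 and 19561 CPM. In MOC22 isotype alone Ccl5 was the higher in Xcl1+Ccl1+ cells, with 4204 CPM against 2451 CPM.

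Ifng, the interferon that activates macrophages and antigen presentation, had 58.2, 529 and 2337 CPM in Xcl1+Ccl1+ cells, against 27.2, 167 and 267 CPM in Xcl1-Ccl1- cells (log2 1.83, SE 0.43, adjusted p = 0.00584, higher in 7 of 8 libraries). Csf2 (GM-CSF) had 3.06, 19.7 and 261 CPM, against 0, 1.42 and 9.17 CPM (log2 4.14, SE 0.58, adjusted p = 1.66e-04, higher in 7 of 8 libraries), and 66 of the 71 UMIs behind its highest library, MOC1E1 isotype, came from 1 cell. Tnf was not called at log2 1.20 (adjusted p = 0.0542, higher in 5 of 8 libraries). It passed in thinned cells (1.87, adjusted p = 5.50e-05) and also without MOC1 isotype (1.42, 0.0250) or MOC1E1 isotype (1.36, 0.0424). Il2 was not called at log2 2.17 (adjusted p = 0.0516, higher in 4 of 8 libraries) and passed in thinned cells (3.00, 0.00250). It was found in 11 of 329 Xcl1+Ccl1+ cells, and after thinning in 7 of 326. In the Xcl1+Ccl1+ cells of MOC22 isotype, 35 of 36 Il2 UMIs lay in 1 cell. Il2 stood at 1.24 (0.192) without MOC1 anti-PD-1. It passed, at 2.34 to 2.64, without MOC1 anti-CTLA-4, MOC1 isotype, MOC1E1 isotype or MOC22 anti-PD-1. Ccr8, the receptor for Ccl1 itself, had 109, 254 and 419 CPM, against 12.3, 49.5 and 120.4 CPM (log2 2.26, SE 0.29, adjusted p = 9.61e-05). Each of the 8 libraries had more Ccr8 in Xcl1+Ccl1+ cells, and the fold was 1.61 on the log2 scale after thinning.

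Surface receptors of activated cells were partly higher. Of 10 costimulatory receptors tested, 5 rose, 1 fell and 4 were not called, with a median log2 fold change of 0.71. Over all genes 13.3% were higher and 13.9% lower. Il2ra, the high-affinity subunit of the interleukin 2 receptor, rose by 2.07, Tnfrsf4 (OX40) by 2.02 and Cd200 by 2.28, and Cd28 fell by 0.51, a call lost in thinned cells (-0.60, adjusted p = 0.0789). Of 16 inhibitory receptors and exhaustion genes tested, beside the same shares over all genes, 5 rose, 0 fell and 11 were not called, with a median of 0.10. Cd160, a receptor for the herpesvirus entry mediator, had 371, 419 and 577 CPM in Xcl1+Ccl1+ cells, against 28.2, 85.4 and 133 CPM in Xcl1-Ccl1- cells (log2 2.40, SE 0.18, adjusted p = 1.17e-06).

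Pdcd1, which encodes PD-1, had 367, 684 and 913 CPM in Xcl1+Ccl1+ cells, against 65.2, 282 and 923 CPM in Xcl1-Ccl1- cells (log2 1.04, SE 0.33, adjusted p = 0.0298). The call was lost on leaving out MOC1 isotype (1.00, adjusted p = 0.0742), MOC1E1 anti-PD-1 (1.07, 0.0574), MOC1E1 isotype (0.76, 0.0562) or MOC22 isotype (0.73, 0.0559), and without the library block (0.72, 0.219). In MOC1E1 isotype and MOC22 isotype the Xcl1-Ccl1- cells held 65.2 and 97.9 CPM of Pdcd1, the lowest of the 8 libraries. Havcr2 (TIM-3) rose by 1.28 (adjusted p = 0.00928, and 0.128 at 0.99 without the library block) and Lag3 by 1.19 (adjusted p = 0.0445). Tox, the factor of exhausted T cells, had a log2 fold change of -0.15 (adjusted p = 0.703), and Tigit, Entpd1 and Ctla4 were not called. Entpd1 stood at -0.33 (adjusted p = 0.580), and at -1.57 in thinned cells (0.0672).

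Of 15 cytotoxic effectors tested, 1 rose (Srgn, the granule proteoglycan, by 0.55), 1 fell and 13 were not called, with a median of 0.31, where 13.3% of all genes were higher and 13.9% lower. In thinned cells 1 of 15 rose and 3 fell, where 4.31% of all genes were higher and 12.2% lower. The rise of Srgn was lost on leaving out MOC1 anti-PD-1 (0.54, adjusted p = 0.0545), MOC1E1 isotype (0.49, 0.0618) or MOC22 anti-PD-1 (0.51, 0.0605). Gzmk, a granzyme of early effector and memory cells, had 3.06, 22.4 and 158 CPM in Xcl1+Ccl1+ cells, against 23.7, 228 and 398 CPM in Xcl1-Ccl1- cells (log2 -2.65, SE 0.42, adjusted p = 3.59e-04). Gzmb had a log2 fold change of -0.96 (adjusted p = 0.0685), and fell in thinned cells (-1.74, 5.29e-07). Prf1 had one of -0.15 (adjusted p = 0.675). In thinned cells, with libraries pooled and the full-depth classes kept, a Gzmb UMI was found in 19.3% of Xcl1+Ccl1+ cells and 35.7% of Xcl1-Ccl1- cells. Of 11 tissue residency genes, 1 rose, 3 fell and 7 were not called, beside 13.3% higher and 13.9% lower over all genes. Itgae (CD103) was not called (log2 0.33, adjusted p = 0.245).

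Interferon-stimulated genes were lower as a group. Of 18 tested, 15 fell, 0 rose and 3 were not called, with a median log2 fold change of -1.23, and in thinned cells 5 of 12 fell, with a median of -0.89. Over all genes 13.9% were lower and 13.3% higher, and in thinned cells 12.2% and 4.31%. Zbp1, a sensor of nucleic acids, had 20.5, 39.0 and 81.6 CPM in Xcl1+Ccl1+ cells, against 65.2, 114 and 169.8 CPM in Xcl1-Ccl1- cells (log2 -1.46, SE 0.19, adjusted p = 9.78e-05). Isg15, a ubiquitin-like protein, fell by 1.12 on the log2 scale, a call lost in thinned cells (-0.49, adjusted p = 0.226). Glycolytic genes were higher at full depth, with 10 of 13 called and a median of 0.63, but 3 of 12 were called higher in thinned cells, with a median of 0.34. Tpi1, the triose phosphate isomerase, rose by 1.33 and Ldha by 0.63 at full depth, and the call of Ldha was lost in thinned cells (0.37, adjusted p = 0.107). Beside the same shares over all genes, 4 of 14 cell cycle genes rose, 1 fell and 9 were not called, and in thinned cells 0 of 9 rose and 2 fell (edgeR).

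**Figure D4:**
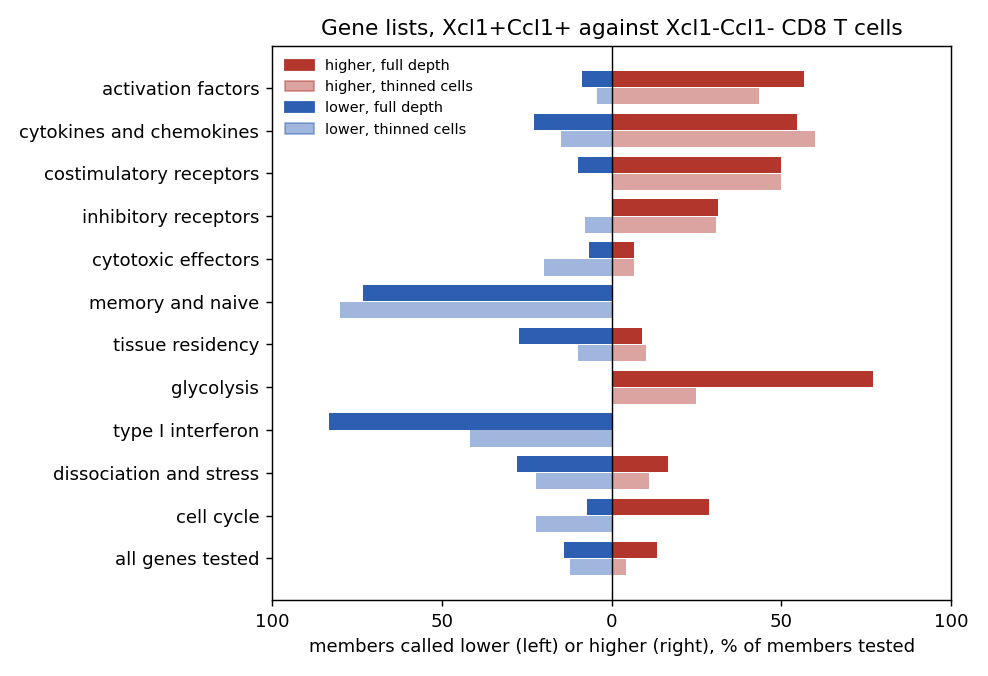
Members of each gene list called higher (red, right) or lower (blue, left) in Xcl1+Ccl1+ cells as a percent of members tested (x axis), at full depth (dark) and in thinned cells (pale). The memory and naive list (11 of 15 lower) and the interferon list (15 of 18 lower) lie to the left, and glycolysis (10 of 13 higher) shrinks to 3 of 12 in thinned cells.

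Markers of other cell types showed what else the selected droplets could hold. In summed CPM over the list, the macrophage markers had 13.7, 25.5 and 737 in Xcl1+Ccl1+ cells, against 7.01, 24.8 and 1491 in Xcl1-Ccl1- cells, and neutrophil markers had 0, 0 and 25.7, against 0.112, 2.81 and 255. Natural killer markers had 39.8, 106 and 302 CPM, against 58.6, 144 and 256 CPM, with Klra8 at 0 in all Xcl1+Ccl1+ sums. Gamma-delta T cell markers had 0, 24.1 and 87.5 CPM, against 18.6, 46.3 and 124 CPM. Innate-like T cell markers had 783, 962 and 1261 CPM, against 231, 637 and 1287 CPM, higher in 7 of 8 libraries. Zbtb16 was at 0 in all Xcl1+Ccl1+ sums. The innate-like list includes Cd160, which alone had a median of 419 CPM, against 85.4 CPM in Xcl1-Ccl1- cells. Of its 6 tested members, 2 rose (Cd160 and Ikzf2), 1 fell (Tyrobp) and 3 were not called. Their median log2 fold change was -0.18, and in thinned cells 1 of 5 rose and 2 fell. Over all genes 13.3% were higher and 13.9% lower, and in thinned cells 4.31% and 12.2%. The call of Ikzf2, at 0.68 on the log2 scale, was lost in thinned cells (-0.21, adjusted p = 0.741, edgeR). Tyrobp stood at -1.59, and at -8.58 in thinned cells.

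The other lists stood as follows. Regulatory T cell markers outside the gate (Il2ra, Ikzf2, Ctla4 and Tnfrsf4) had 301, 614 and 1329 CPM in Xcl1+Ccl1+ cells, against 64.6, 313 and 817 CPM in Xcl1-Ccl1- cells. The B cell list had 3.41, 54.1 and 104 CPM, against 26.4, 92.2 and 251 CPM, with Ms4a1 at 0 in Xcl1+Ccl1+ sums. The dendritic list, which includes Ccr7, had 35.8, 219.8 and 1283 CPM, against 10.9, 168 and 897 CPM, with Flt3, Clec9a and Siglech at 0 in Xcl1+Ccl1+ sums. The part of any of these cells in the results was not tested, beyond the sums given here.

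Xcl1+Ccl1+ cells also differed from cells with Xcl1 alone. This comparison was chosen after the class sizes were known. Against them, 617 of 6989 genes (8.83%) were higher and 739 (10.6%) lower in Xcl1+Ccl1+ cells. Crtam was higher by 1.62 on the log2 scale (adjusted p = 1.96e-08), Tnfrsf9 by 1.59 (6.00e-07), Nrgn by 2.56 (2.14e-08), Penk by 3.17 (2.37e-04) and Ccr8 by 1.21 (3.30e-05). Klf3 had a log2 fold change of -4.47 (1.58e-08) and Klf2 of -2.88 (7.89e-07), both called lower. Nr4a1 and Nr4a2 were not called, at 0.57 (adjusted p = 0.0748) and 0.32 (0.170), and Nr4a3 was higher by 0.60 (0.0216). Of the memory and naive list 12 of 15 were lower and 1 higher, of the interferon list 14 of 18 were lower, and of the activation list 7 of 24 were higher and 5 lower. In thinned cells 126 of 1783 genes (7.07%) were higher and 174 (9.76%) lower. Nr4a1 and Nr4a2 were then called higher, at 0.77 (adjusted p = 0.00317) and 0.52 (0.0240), Nrgn stood at 1.77 (0.00467) and Klf2 at -2.02 (1.53e-04), and the call of Ccr8 was lost (0.36, 0.313). Of the activation list 8 of 22 were then higher and 0 lower (edgeR), of the memory and naive list 5 of 7 were lower and 1 higher, and of the interferon list 1 of 6 was lower.

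The receptor libraries, which took no part in the selection, gave the clonal state. Of Xcl1+Ccl1+ cells, 236 had both an alpha and a beta chain, and they fell into 179 clones, of which 26 held 2 or more Xcl1+Ccl1+ cells. The share of such cells in clones of 2 or more was 64.7% (11 of 17) in MOC1E1 isotype, against 9.52% of Xcl1-Ccl1- cells, and 72.5% (50 of 69) in MOC22 isotype, against 17.6%. In the other 6 libraries the Xcl1+Ccl1+ and Xcl1-Ccl1- shares were closer. They were 67.4% and 64.1% in MOC1 anti-PD-1, 77.8% and 66.4% in MOC1 anti-CTLA-4, and 29.2% and 33.5% in MOC1 isotype. They were 60.0% and 44.1% in MOC1E1 anti-PD-1, 66.7% and 67.4% in MOC1E1 anti-CTLA-4, and 78.9% and 81.1% in MOC22 anti-PD-1.

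**Figure D5:**
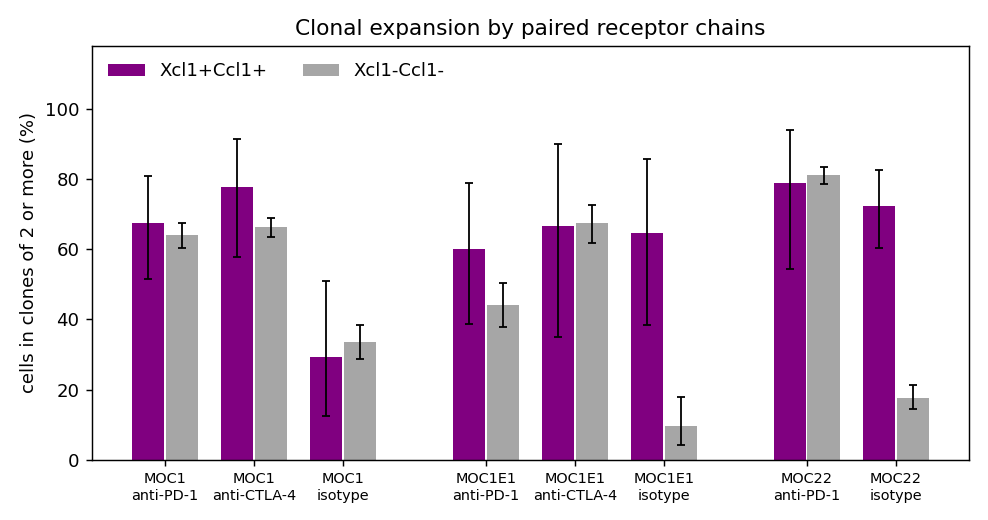
Cells with both receptor chains that lie in clones of 2 or more cells (y axis, %) among Xcl1+Ccl1+ cells (purple) and Xcl1-Ccl1- cells (grey) of each library (x axis), with exact binomial 95% intervals. The gap is widest in MOC1E1 isotype (64.7% against 9.52%) and MOC22 isotype (72.5% against 17.6%).

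Over the 8 libraries the Xcl1+Ccl1+ share in clones exceeded the Xcl1-Ccl1- share by a mean of 16.7 percentage points (SD 24.6, n = 8), with the higher value in 5 of 8 libraries. An exact two-sided sign-flip permutation test gave p = 0.0938, where the smallest p that 8 libraries allow is 0.00781. The mean was 11.2 points without MOC1E1 isotype or without MOC22 isotype (exact permutation p = 0.188 each). With thinned cells it was 20.5 points (exact p = 0.0469), and with cells of 2 beta chains or several hashtags left out it was 18.1 points (exact p = 0.0391). The thinned mean takes MOC1E1 anti-CTLA-4 at 100.0% from 2 of 2 Xcl1+Ccl1+ cells. The difference of that library was 32.2 points after thinning, against -0.760 at full depth. Clone mates did not all hold both transcripts. Of 89 clones with an Xcl1+Ccl1+ cell and at least 2 CD8 cells, 72 also held Xcl1-Ccl1- cells, and these 89 clones contained 146 Xcl1+Ccl1+ cells and 573 Xcl1-Ccl1- cells among 855 CD8 cells.

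Within Xcl1+Ccl1+ cells, the antibody libraries were compared with their isotype library on genes with at least 20 UMIs over both sums. With 28 to 87 cells and 1 library per group these are descriptions without a test within a model, intervals are exact Poisson 95% intervals for counting error only, and CPM is over all genes of that model. In MOC1 anti-PD-1, 188 of 4448 genes (4.23%) were at least 2-fold higher and 145 (3.26%) at least 2-fold lower. Ifng stood at 555 CPM (492 to 623) with anti-PD-1, in 28 of 49 cells, against 57.5 CPM (34.6 to 89.8) with isotype, in 13 of 29 cells. Prf1 (perforin) stood at 196 CPM (159.6 to 238), in 19 cells, against 18.2 CPM (6.66 to 39.5), in 4 cells. Ccl4 stood at 2977 CPM, in 25 cells, against 84.7 CPM, in 8 cells, and 442 of its 1535 anti-PD-1 UMIs lay in 1 cell. Il13, a type 2 cytokine, had 152 UMIs with anti-PD-1 and none with isotype, at least 32.5-fold higher against a floor of 3 counts, but 114 of these UMIs lay in 1 cell and all in 3 cells.

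Lower in MOC1 anti-PD-1 were Lad1, Fas, Tbc1d4 and Odc1. Fas, the death receptor, stood at 42.7 CPM (26.7 to 64.6) with anti-PD-1, against 139 CPM (102 to 186) with isotype. Odc1, the first enzyme of polyamine synthesis, stood at 211 CPM (174 to 255), against 542 CPM (465 to 627). Of the 18 cytokine and chemokine genes measured, 10 were at least 2-fold higher and 1 lower, with a median log2 ratio of 1.27 against -0.03 over all genes.

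In MOC1 anti-CTLA-4, 235 of 3728 genes (6.30%) were at least 2-fold higher and 176 (4.72%) at least 2-fold lower than in the same isotype library. Lmna, a nuclear lamin raised in activated T cells, had 65 UMIs in 24 of 33 cells with anti-CTLA-4, or 219 CPM (169 to 279), against 3 UMIs in 3 of 29 cells with isotype, or 9.08 CPM (1.87 to 26.5). Ctla2a stood at 283 CPM (226 to 351), in 24 cells, against 27.2 CPM (12.5 to 51.7), in 7 cells. Gzmb stood at 411 CPM, against 57.5 CPM, with 76 of its 122 anti-CTLA-4 UMIs in 1 cell, and Ccl4 at 1669.5 CPM, against 84.7 CPM, with 306 of 495 UMIs in 1 cell. Tbc1d4, a regulator of glucose transporter traffic, stood at 27.0 CPM (11.6 to 53.2), against 172 CPM (131 to 223), and Lad1 and Nrn1 were also among the 4 lowest. Areg was the fourth, with 54 of its 71 isotype UMIs in 1 cell. Nr4a1 stood at 924 CPM (818 to 1040.3) with anti-CTLA-4 and 611 CPM (545 to 682) with anti-PD-1, against 281 CPM (227 to 345) with isotype.

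In MOC1E1 anti-PD-1, 119 of 3558 genes (3.34%) were at least 2-fold higher and 123 (3.46%) at least 2-fold lower. The 4 highest ratios were Apoe, C1qa, C1qb and H2-Aa, genes of macrophages and antigen-presenting cells. Apoe had 92 UMIs in 5 of 32 cells with anti-PD-1, against 0 in 28 isotype cells, and C1qa had 64 UMIs in 6 cells, against 1 UMI. Fcer1g, shared by myeloid and natural killer cells, had 87 UMIs in 8 cells, against 9 UMIs in 1 cell. What part myeloid RNA had in other genes of that library was not tested. Penk stood at 60.6 CPM (36.5 to 94.7) with anti-PD-1, in 6 cells, against 261 CPM (205 to 329) with isotype, in 4 cells. Csf2 and Lars2 were lower mainly through 1 isotype cell each, which held 66 of 71 and 840 of 1140 isotype UMIs. Of 16 cytokine genes measured, 0 were at least 2-fold higher and 5 lower, with a median log2 ratio of -0.36.

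In MOC1E1 anti-CTLA-4, 242 of 3502 genes (6.91%) were at least 2-fold higher and 245 (7.00%) at least 2-fold lower than in that isotype library. Id2, a factor of effector cells, stood at 1074 CPM (959 to 1198) with anti-CTLA-4, in 40 of 42 cells, against 225 CPM (173 to 289) with isotype, in 18 of 28 cells. Klre1, a natural killer receptor, stood at 178 CPM (133 to 233), in 18 cells, against 29.1 CPM (12.5 to 57.2), in 5 cells. Gzmb stood at 1175 CPM, in 18 cells, against 218 CPM, in 6 cells, with 119 of its 350 anti-CTLA-4 UMIs in 1 cell. Il1r2, the decoy receptor for interleukin 1, had 2 UMIs in 2 cells, or 6.71 CPM (0.813 to 24.2), against 88 UMIs in 12 cells, or 319.6 CPM (256 to 394). Of 11 interferon-stimulated genes measured, 7 were at least 2-fold higher and 0 lower, with a median log2 ratio of 1.11 against -0.01 over all genes. Isg20, one of them, stood at 208 CPM (159.5 to 267), against 54.5 CPM (30.5 to 89.9).

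In MOC22 anti-PD-1, 233 of 5205 genes (4.48%) were at least 2-fold higher and 363 (6.97%) at least 2-fold lower. Chn2, a Rac-regulating chimaerin, had 1 UMI in 29 cells with anti-PD-1, or 4.22 CPM (0.107 to 23.5), against 57 UMIs in 34 of 87 cells with isotype, or 80.7 CPM (61.1 to 105). Pacsin2, a membrane-bending protein, had 1 UMI, against 52 UMIs in 35 cells. Itgae stood at 97.0 CPM (61.5 to 146), in 9 cells, against 425 CPM (378 to 476), in 65 cells. Gzmc and Spp1 were also among the 4 lowest, with 90 of 94 and 48 of 50 isotype UMIs in 1 cell each. The 4 highest were Myc, Nrn1, Furin and Gzmk. Furin, a proprotein convertase, stood at 202 CPM (149 to 268), in 15 cells, against 26.9 CPM (16.2 to 42.0), in 15 cells. Of 20 activation factors measured, 8 were at least 2-fold higher and 0 lower, with a median log2 ratio of 0.95, and Nr4a1 stood at 692 CPM (589.9 to 806), against 218 CPM (185 to 255), with 70 of its 164 anti-PD-1 UMIs in 1 cell.

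Of the surface receptors that were higher in Xcl1+Ccl1+ cells of every library, 7 were set side by side by antibody, chosen after their values were seen. Tnfrsf9 stood at 1024 CPM with anti-PD-1 and 1008 CPM with anti-CTLA-4 in MOC1, against 744 CPM with isotype. It stood at 749.9 and 507 CPM in MOC1E1, against 741 CPM, and at 1012 CPM with anti-PD-1 in MOC22, against 671 CPM. Crtam stood at 169 CPM with anti-PD-1 and 438 CPM with anti-CTLA-4 in MOC1, against 260.2 CPM, at 140.4 and 134 CPM in MOC1E1, against 163 CPM, and at 342 CPM in MOC22, against 171 CPM. Ccr8 stood at 306 CPM with anti-PD-1 and 216 CPM with anti-CTLA-4 in MOC1, against 414 CPM, at 195 and 107 CPM in MOC1E1, against 287 CPM, and at 211 CPM in MOC22, against 337 CPM. All 5 antibody libraries thus had less Ccr8 than their isotype library. For anti-PD-1 the counting intervals overlapped in MOC1 (261 to 358 CPM, against 348 to 490.0 CPM). They also overlapped in MOC1E1 (149 to 250.1 CPM, against 227 to 358 CPM). Tnfrsf4 stood at 694 CPM with anti-PD-1 and 246 CPM with anti-CTLA-4 in MOC1, against 623 CPM, at 332 and 97.3 CPM in MOC1E1, against 287 CPM, and at 253 CPM in MOC22, against 94.9 CPM. Cd200 stood at 23.6 CPM with anti-CTLA-4 in MOC1, against 103 CPM with isotype, and at 26.8 CPM in MOC1E1, against 185 CPM, while its log2 ratios with anti-PD-1 ran from -0.57 to -0.11. Both receptors were thus lowest with anti-CTLA-4 in MOC1 and MOC1E1. The log2 ratios of Il2ra ran from -0.04 to 0.49 and those of Cd160 from -0.28 to 0.61.

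Over the models, antibody effects within Xcl1+Ccl1+ cells were tested on the 8 sums with the model as a block (edgeR's quasi-likelihood test, 3 residual degrees of freedom). With anti-PD-1, 0 of 4469 genes were called, with 181 at an unadjusted p below 0.05. Without MOC22 anti-PD-1 or without MOC22 isotype 14 were called, and without any other single library 2 or fewer. With anti-CTLA-4, present in 2 models, 14 genes (0.313%) were higher and 16 (0.358%) lower. Ccl5 was higher by 1.99 on the log2 scale (SE 0.26, adjusted p = 0.0136), with 2346 CPM in MOC1 and 2903 CPM in MOC1E1 with anti-CTLA-4, against 529.6 and 709 CPM with isotype. Gzmb was higher by 2.65 (adjusted p = 0.0174), where 76 of 122 UMIs in MOC1 and 119 of 350 in MOC1E1 lay in 1 cell each. Cd200 was lower, at -2.45 (adjusted p = 0.0139), as was Ccr8, at -1.20 (0.0378), while Tnfrsf4 was not called (-1.27, 0.0874). No anti-CTLA-4 call remained without MOC1 anti-CTLA-4 or without MOC1E1 anti-CTLA-4, with 478 and 348 genes at an unadjusted p below 0.05 (edgeR). In those fits the lone anti-CTLA-4 library is assumed to vary like the other groups. The count was 39 without MOC1 anti-PD-1, 6 without MOC1 isotype, 10 without MOC1E1 anti-PD-1, 12 without MOC1E1 isotype, 80 without MOC22 anti-PD-1 and 77 without MOC22 isotype.

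Of the memory and naive list, 0 of 10 genes were at least 2-fold higher and 2 lower in MOC1 anti-PD-1, and 1 of 8 higher and 6 lower in MOC1 anti-CTLA-4. In MOC1E1 1 of 8 was higher and 4 lower with anti-PD-1, and 1 of 6 higher and 2 lower with anti-CTLA-4. In MOC22 anti-PD-1 2 of 10 were higher and 2 lower. Among all genes measured, 3.26%, 4.72%, 3.46%, 7.00% and 6.97% were at least 2-fold lower in MOC1 anti-PD-1, MOC1 anti-CTLA-4, MOC1E1 anti-PD-1, MOC1E1 anti-CTLA-4 and MOC22 anti-PD-1. Klf2 in MOC22 had 0 UMIs with anti-PD-1, against 46 with isotype, at least 5.15-fold lower against a floor of 3 counts, and Id3, an inhibitor of E proteins, had 1 UMI, against 22.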

How the data were processed

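RNA and T cell receptors were measured with 10x 5' gene expression and V(D)J kits, per the labels' protocols. The deposited matrices hold raw UMI counts per gene and barcode as the authors made them. Cell Ranger 3.0.2, Seurat and the builds mm10 and GRCh38 are listed, without a role, in the submitters' processing notes. The authors had already limited mitochondrial UMIs in the MOC1E1 and MOC22 files (highest cell 5.00%) but not in MOC1 (97.8%). The MOC22 receptor tables were assigned by the treatment in their titles, since their descriptions name each other's file. In every library 83.1 to 99.2% of receptor barcodes were found in the RNA library of the same group, and no other RNA library held more than 0.931%.

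UMIs were summed per library and class over the 13728 genes common to the 3 models. Sums were tested with edgeR 4.0.16 (limma 3.58.1, R 4.3.3, data.table in version 1.17.8; filterByExpr, TMM, library as block, Benjamini-Hochberg over all genes, threshold 0.05), with the selection genes left out. DESeq2 1.42.0 was an alternative. The library is the same suspension for both classes, which is where the pairing comes from. Xcl1+Ccl1+ sums were also tested by antibody with the model as a block, chosen after seeing the data. The edgeR steps were tested on simulated data. Class CPM is over the common genes and treatment CPM over all genes of a model, with 0.5 added to each count in treatment ratios and 1 added to CPM in ratios per library. Thinning to 2000 UMIs left out 408 gated cells with fewer. No doublet caller was run; cells with 2 or more beta chains or several hashtags were left out as an alternative. MOC1 hashtags were called with an Otsu threshold per tag (scikit-image 0.26.0). Clones share a productive alpha and beta chain, and their size is over all cells of the receptor library. Share intervals are exact (Clopper-Pearson, 95%) and floors are 3 counts; both cover counting error only. Python 3.11.15, numpy 2.4.6, scipy 1.17.1, pandas 2.3.3 and matplotlib 3.10.9 did the rest.

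The text names, of the called genes that averaged at least 20 CPM and had 1 direction in all libraries, the 12 that rose most and the 8 that fell most. It also names up to 4 called members per list with the smallest p, members of the activation and cytokine lists, the receptors of the defining chemokines, the 6 smallest p for class by model, and the 4 highest and 4 lowest treatment ratios with list members. Cd28, Lag3, Tox, Tigit, Entpd1, Ctla4, Gzmb, Prf1, Tcf7, Itgae, Isg15, Ldha and the receptors and genes set side by side by antibody were added after their values were seen. The cells, gene lists and tests were chosen with earlier results of these data known. Bulk RNA and exome samples were not used here. A few genes that the rule names are not reported here.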

Additional observations from a re-analysis of the deposited data

Results flagged for a closer look

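Some libraries stood apart from the other 7 in the log2 ratio of CPM in Xcl1+Ccl1+ over Xcl1-Ccl1- cells. Dixon's gap test flagged 9 of 100 gene and library groups checked, where chance flags about 1 in 20. In MOC22 isotype the ratio was 3.96 for Cd160, against 1.92 to 2.77 in the other libraries, and 4.12 for Nr4a2, against 0.02 to 1.92. In MOC22 anti-PD-1 it was 1.66 for Fos, against -2.36 to -0.51, and 3.24 for Fosb, against -1.73 to 0.30, from 4 Fos and 3 Fosb UMIs in the Xcl1+Ccl1+ cells of that library. Il16 in the same library stood at -2.33, against -1.27 to -0.36.

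In MOC1E1 isotype Klf3 stood at -7.42, against -4.77 to -3.41, with no Klf3 UMI in its 28 Xcl1+Ccl1+ cells. Klf3 had no UMI in the Xcl1+Ccl1+ cells of 4 libraries, and with these set to 3 counts the ratio was -3.83, against -4.77 to 0.08, so that the library no longer stood apart. In MOC1E1 anti-PD-1 Mcm5 stood at -0.33, against 0.71 to 1.54. In MOC1 anti-CTLA-4 Tnfsf8 stood at -3.63, against -0.00 to 2.31, and Flt3l at -4.45, against -1.45 to 0.43. Both had no UMI in the Xcl1+Ccl1+ cells of that library, and at 3 counts the ratios were -0.14 for Tnfsf8, below the other libraries, and -0.96 for Flt3l, within their range.

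The class difference of Nr4a1 and Nr4a3 differed between the models (adjusted p = 0.00987 and 0.00981, edgeR). The share of Xcl1+Ccl1+ cells with anti-PD-1 minus isotype was 0.131 points in MOC1, -6.33 in MOC1E1 and -4.75 in MOC22. This difference between models was not tested, with 1 library per group.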

How the results depend on the processing

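The count of genes called between the classes was 2192, and 1379 without the library block (no replicate block), 830 after thinning, 1356 against cells with Xcl1 only (chosen after seeing the data) and 1704 to 2224 with 1 library left out. DESeq2 called 1974. Higher genes were 49.0% of the calls, 26.0% after thinning and 31.6% without the filter on low counts. Without the block 27 named calls were lost. The count that varied by model was 2, and 148 without the filter, 22 after thinning and 0 to 122 (edgeR) with 1 library left out. Ikzf2 turned from 0.68 to -0.21 after thinning and to -0.39 against Xcl1-only cells, and Retnlg, with 0 UMIs in Xcl1+Ccl1+ cells, from -6.28 to 1.36 with DESeq2; the cause was not tested. The MOC22 share difference of -4.75 points was -2.50 after thinning and -2.91 with a gate of 2 UMIs each. Genes past 2-fold by antibody numbered 333, 411, 242, 487 and 596 in MOC1 anti-PD-1, MOC1 anti-CTLA-4, MOC1E1 anti-PD-1, MOC1E1 anti-CTLA-4 and MOC22 anti-PD-1. They numbered 73, 109, 51, 128 and 175 with at least 50 UMIs and 51, 59, 27, 52 and 151 after thinning, where fewer genes were measured. The clone difference of 16.7 points was 20.5 after thinning, 18.1 without cells of 2 beta chains or several hashtags, 19.2 by beta chain alone (exact permutation p = 0.0703), 9.36 for clones of 3 or more (exact p = 0.359) and 11.2 to 19.7 with 1 library left out. The test of antibodies over models, chosen after seeing the data, called 0 genes with anti-PD-1 (181 at an unadjusted p below 0.05, edgeR) and 0 to 14 with 1 library left out, and 30 with anti-CTLA-4 and 0 to 80. An antibody comparison rests on sums of 28 to 87 cells.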
